A study of Auxenochlorella pyrenoidosa with 8 samples.

Results

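The 100 genes with the highest mean transcript level on 5% CO2 were taken from 10283 measured genes of the green alga Auxenochlorella pyrenoidosa (strain FACHB-9), and their levels were followed after the cultures were moved to air. A gene is a member when the mean of its RPKM values (reads in the gene, scaled to its length in kilobases and to the reads of the library) in the 0 h libraries ranks among the first 100. Members were selected on these 0 h values, which are therefore given as a description with no test. The lowest-ranked members were g2113, at 426 ± 120 RPKM, and g8737, at 421 ± 192 RPKM (SD, n = 2). Just below them, and outside the group, lay g2440 at 420 ± 79.3 RPKM and g6984 at 418 ± 0.832 RPKM (SD, n = 2), so the boundary separates genes whose 0 h levels do not differ beyond their spread.

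Each group held 2 libraries from a pair of independent experiments handled in one batch, per the design text. Cells had grown in the light on 5% CO2 for 5 days (0 h), and were then bubbled with air for 1 h, 4 h or 24 h. All groups share that strain and that growth, and none of the samples stayed on 5% CO2 past 0 h, so time in culture cannot be told apart from the change to air. Whole cells were extracted, and poorer recovery of RNA from some cells cannot be told apart from lower transcript levels.

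In eukaryotic cells a small set of genes supplies a large part of the messenger RNA. In green algae growing in light these are known to include genes for light-harvesting proteins, for the small subunit of Rubisco, the enzyme that fixes CO2, and for ribosomal proteins. A shift from high CO2 to air is known, from work on Chlamydomonas, to raise transcripts for bicarbonate transport and carbonic anhydrase. Genes in the files carry a number but no name, product or sequence, so none of these roles could be assigned to a member. RPKM values and read shares are relative to the total of a library, so a rise of some transcripts lowers the share of the others.

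Between 16706278 and 35463138 reads fell in genes in a library. A member had at least 2979 reads in every library, for which the counting error alone is 1.83% of the value. Similarity of the libraries did not always follow their labels. Over the 100 members, the libraries labelled 1 h number 2 and 24 h number 1 differed by more than 1.5-fold for 1 member. The pair labelled 1 h differed that much for 15 members, and the pair labelled 24 h for 25. Both 1 h number 2 and 24 h number 1 lay above both 1 h number 1 and 24 h number 2 for 31 members and below both for 29. Among the tested genes these shares were 32.9% and 27.7%. All statements on 1 h and 24 h below depend on these labels as given, and values are therefore printed for each library.

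The 100 members covered a wide range of levels at 0 h, with a steep head and a long flat tail. The highest mean was 9808 RPKM and the lowest 421 RPKM, 23.3-fold apart. The median member stood at 699 RPKM and the median of the 9326 tested genes, those that averaged 1 RPKM or more across the 8 libraries, at 14.7 RPKM. Only 6 members had a 0 h mean of at least 2000 RPKM, and 27 had at least 1000 RPKM. All 100 members passed the filter of 1 RPKM.

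**Figure D1:**
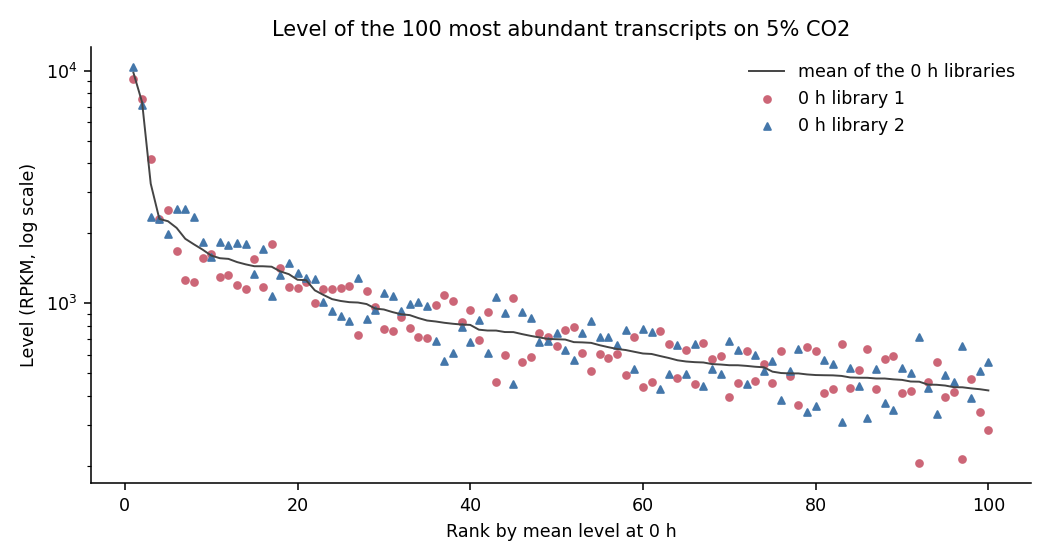
Level of each of the 100 members at 0 h, in RPKM on a log scale, against its rank by the mean of the 0 h libraries. The line is the mean, circles are library 1 and triangles library 2. Levels drop from 9808 RPKM at the first rank to 421 RPKM at the last, and the libraries differ by 1.37-fold in the median member.

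A pair of genes stood apart at the head of the list. The first, g2859, is a plus-strand gene of scaffold00366 (466642 to 467696) whose 3 coding exons add up to 312 bp. Its level at 0 h was 9250 RPKM in library 1 and 10366 RPKM in library 2. After 1 h in air the libraries held 12872 and 13832 RPKM, after 4 h 17001 and 16170 RPKM, and after 24 h 14054 and 14997 RPKM, with library 1 first here and below. No 0 h library reached any later one, and the 4 h libraries were the highest, with 1.69 times the 0 h mean. It held 0.975% and 1.09% of all reads at 0 h and 1.79% and 1.70% at 4 h. The second, g7741, is a plus-strand gene of scaffold01012 (2389666 to 2390500) with 465 bp of coding sequence in 2 exons. At 0 h its libraries held 7545 and 7111 RPKM, followed by 8451 and 9125 RPKM after 1 h, 7368 and 7189 RPKM after 4 h, and 9359 and 8804 RPKM after 24 h. Its 0 h and 4 h levels overlapped, and its 1 h and 24 h levels lay above both of these groups. At 0 h the mean of g7741 was 2.24 times that of the gene at rank 3. In each of the 8 libraries g2859 was the most abundant gene and g7741 the second.

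The next members differed in their course. g1804, a minus-strand gene of scaffold00168 (1227 to 2344) whose 3 coding exons add up to 261 bp, has rank 3 by the mean. Its 0 h libraries held 4183 and 2354 RPKM, those of 1 h 1644 and 1066 RPKM, those of 4 h 1108 and 982 RPKM, and those of 24 h 1170 and 1411 RPKM. All later libraries lay below both 0 h libraries, which themselves differed widely, and its rank fell to between 17 and 32. g7783, a minus-strand gene of scaffold01012 (2626639 to 2628927) whose 3 coding exons add up to 951 bp, was at 2302 and 2308 RPKM at 0 h. After 1 h it stood at 3762 and 2902 RPKM, after 4 h at 6710 and 6248 RPKM, and after 24 h at 3286 and 4762 RPKM. Its 0 h libraries were nearly equal and lay below all later ones, and the 4 h libraries lay above all others. Its read share was 0.527% in the mean at 0 h and 1.48% at 4 h.

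For the other 6 of the 10 highest members the later means lay between 0.800 and 1.49 times the 0 h mean, and for the first 4 between 0.320 and 2.81 times. g9064 was at 2526 and 1979 RPKM at 0 h and between 1816 and 2199 RPKM later, so its later values lay at or below the higher 0 h library. g3526, g10027 and g8313 were each low in 0 h library 1 and high in library 2. For g10027 these were 1254 and 2532 RPKM, and its later libraries held 2496 to 2964 RPKM, close to library 2. g3526 had 1669 and 2548 RPKM at 0 h and 1850 to 2807 later, and g8313 had 1239 and 2345 RPKM at 0 h and 2022 to 2763 later. g2240 was at 1564 and 1838 RPKM at 0 h and 1346 to 1897 later. g9540 was at 1634 and 1573 RPKM at 0 h, at 1240 and 1324 RPKM at 4 h, and at 1662 to 1915 RPKM at 1 h and 24 h, so its 4 h libraries lay below all others.

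**Figure D2:**
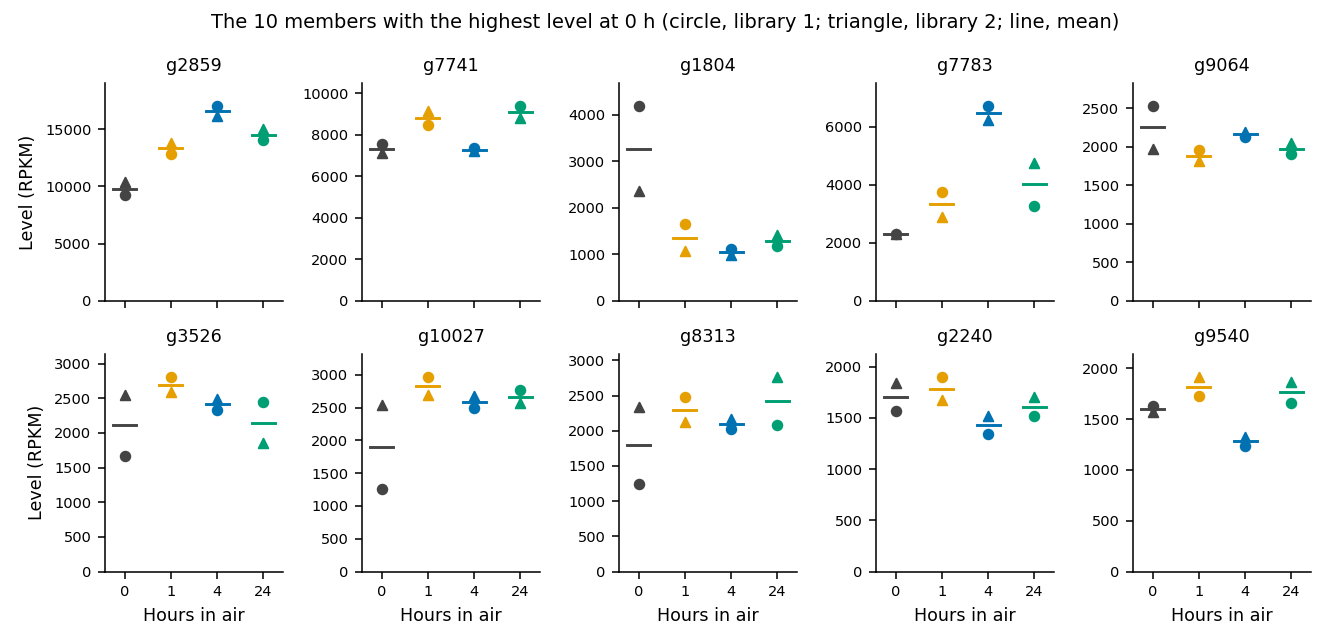
Level in RPKM, on linear axes from 0, of the 10 members with the highest 0 h mean against hours in air. Each point is a library (circles library 1, triangles library 2) and each line the mean of the group, n = 2. g7783 peaks at 4 h at 6479 RPKM in the mean, g1804 is lower in every later library than at 0 h, and g10027 shows the wide gap between the 0 h libraries.

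The members took 16.0% of the reads in 0 h library 1 and 17.5% in library 2. After 1 h they took 19.0% and 18.4%, after 4 h 18.4% and 18.1%, and after 24 h 19.3% and 18.1%. All 6 later libraries lay above both 0 h libraries, by 0.563 to 1.76 percentage points over the higher one, where the 0 h libraries were 1.504 percentage points apart. The group means were 16.7% ± 1.06, 18.7% ± 0.470, 18.3% ± 0.198 and 18.7% ± 0.847 (SD, n = 2) at 0, 1, 4 and 24 h. The 95% Wilson interval of a library's share reached at most 0.0178 percentage points to either side and covers counting error only. With 2 libraries against 2, an exact permutation test cannot go below p = 0.33, and the 0 h share is fixed by the choice of members, so no test was made. The members are 0.972% of the genes.

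Most of the 4 h gain came from the head of the list, and there mainly from g2859 and g7783. The first 10 members held 4.17% and 4.29% of the reads at 0 h and 5.76% and 5.64% at 4 h, a gain of 1.47 percentage points in the mean. In the mean g2859 went from 1.03% to 1.75% and g7783 from 0.527% to 1.48%. The rest of the first 10 changed less, up in some and down in others, with the widest fall in g1804, from 0.365% to 0.117%. The other 90 held 12.5% ± 0.982 at 0 h and 12.6% ± 0.115 at 4 h (SD, n = 2), which did not differ beyond the spread. At 1 h these 90 stood at 13.8% ± 0.291 and at 24 h at 13.5% ± 1.20 (SD, n = 2). Without g2859 the members held 15.7% ± 0.981 at 0 h and 16.5% ± 0.136 at 4 h (SD, n = 2). The next 100 genes in the 0 h order took 9.29% ± 0.573 at 0 h and 8.99% ± 0.0235 at 4 h (SD, n = 2). At 1 h and 24 h their mean share was also above that of 0 h, at 9.88% ± 0.958 and 10.2% ± 0.843 (SD, n = 2).

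**Figure D3:**
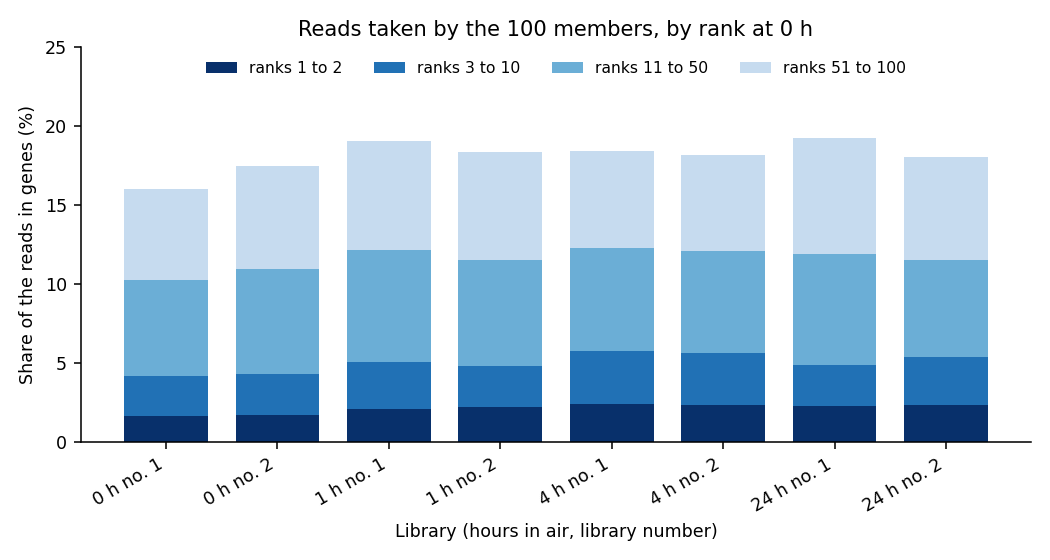
Share of the reads in genes, in percent, taken by the members in each library, stacked by rank at 0 h. The total runs from 16.0% in 0 h library 1 to 19.3% in 24 h library 1, and the first 10 ranks are largest in the 4 h libraries, at 5.76% and 5.64%.

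Membership of the most abundant 100 was largely kept in air. Of the members, 80 were among the first 100 by the mean at 1 h, 70 at 4 h and 79 at 24 h. For comparison, 87 members were among the first 100 of 0 h library 1 alone and 89 among those of library 2, and 76 genes were shared by the first 100 of these libraries. In all 6 later libraries 61 members stayed in the first 100, while 12 were there in none of them. The 30 members that left by 4 h took 2.97% of the 0 h reads and 1.88% of the 4 h reads. The 30 genes that replaced them took 5.55% at 4 h, and 16 of these had been among the next 100 genes at 0 h. The lowest rank reached by a member was 446, for g5194 in 4 h library 2.

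Levels in air relative to the 0 h mean are given with no test, since the 0 h values chose the members. In the means, 94 of 100 members stayed within 2-fold of their 0 h level after 1 h, 85 did after 4 h and 94 after 24 h. Of the 9326 tested genes, 8919, 7867 and 8781 did, which are similar shares. At least 2-fold higher were 1 member at 1 h, 3 at 4 h and 2 at 24 h, where 1.55%, 2.93% and 2.06% of all tested genes were. At least 2-fold lower were 5, 12 and 4 members, where 2.81%, 12.7% and 3.79% of all tested genes were. Both 4 h libraries lay above both 0 h libraries for 26 members (21.0% of tested genes) and below both for 35 (48.9% of tested genes). At 1 h these counts were 34 above (13.0%) and 20 below (28.1%), and at 24 h 24 above (11.9%) and 21 below (33.9%). After trimmed-mean scaling, which sets libraries to a common level of the bulk of genes, 39 members lay above and 14 below at 1 h (20.0% and 20.5% of tested genes), 47 and 21 at 4 h (36.3% and 32.8%), and 31 and 15 at 24 h (20.0% and 21.9%). On that scale more members lay above than below at 4 h.

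The median member stood at a log2 ratio of 0.17 to its 0 h mean at 1 h, -0.01 at 4 h and 0.10 at 24 h. The medians of all tested genes were -0.09, -0.23 and -0.16. Relative to these shifts the members lay higher at each time. Trimmed-mean scaling moved the fitted median of all genes at 4 h from -0.20 to 0.02 and that of the members from 0.00 to 0.25. Under quantile normalization the order turned, with the members at -0.17 and all genes at 0.01.

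**Figure D4:**
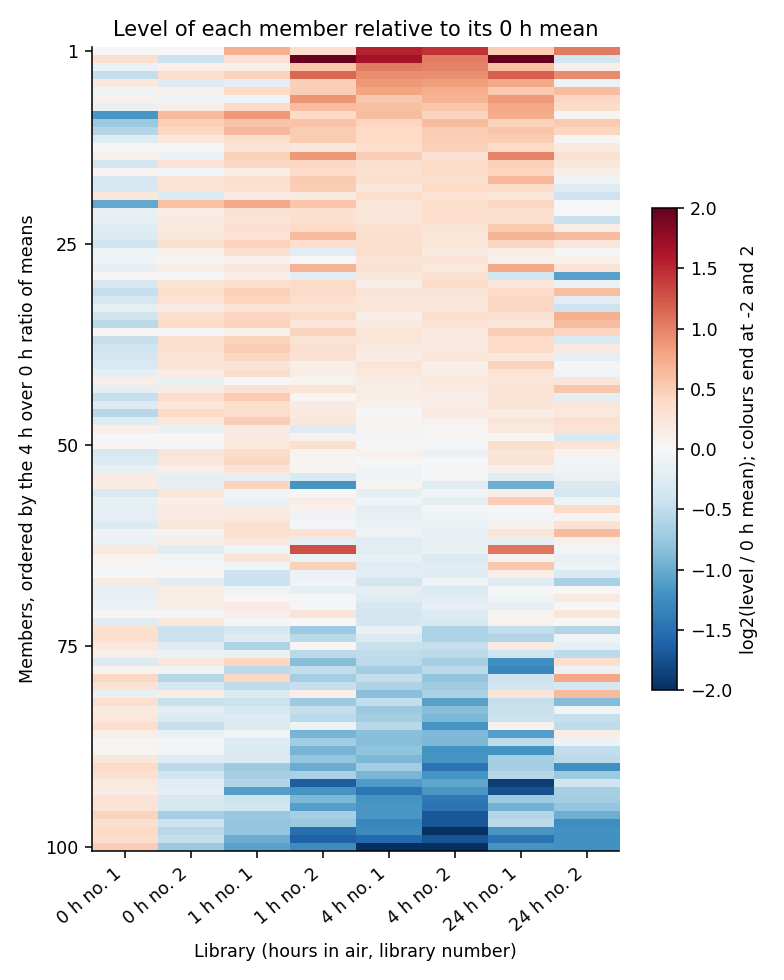
log2 ratio of the level in each library to the 0 h mean of that member, for the 100 members in rows ordered by their 4 h over 0 h ratio of means. Red is above and blue below the 0 h mean, and colours end at -2 and 2. At 4 h 3 members are at least 2-fold above and 12 at least 2-fold below, and many members near the top are blue in 0 h library 1.

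The widest changes from 0 h belonged to a few members. g7990, a plus-strand gene of scaffold01081 (2386 to 3516) whose 3 coding exons add up to 363 bp, had the highest ratio at 1 h and 24 h. From 559 and 332 RPKM at 0 h it went to 546 and 3280 RPKM after 1 h, 1418 and 909 RPKM after 4 h, and 4549 and 345 RPKM after 24 h. Its high values at 1 h and 24 h each rest on a single library, 1 h number 2 and 24 h number 1, and the other library of each group lay within the 0 h range. Without those libraries its ratio to the 0 h mean was 1.22 at 1 h and 0.775 at 24 h, whereas both 4 h libraries lay above both 0 h libraries. g3660, a minus-strand gene of scaffold00479 (34517 to 35510) whose 3 coding exons add up to 234 bp, was second at 1 h and 24 h. From 438 and 777 RPKM at 0 h it went to 835 and 1341 RPKM after 1 h, 1160 and 1155 RPKM after 4 h, and 1390 and 1174 RPKM after 24 h. All its later libraries lay above both 0 h libraries.

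At 4 h the highest ratio of means was 2.81 for g7783, followed by 2.61 for g7990. The lowest ratios were those of g3714 and g1804 at 4 h, at 0.225 and 0.320, and the same pair was lowest at 1 h and 24 h. g3714, a plus-strand gene of scaffold00513 (1656 to 2535) with 450 bp of coding sequence in 2 exons, was at 1054 and 448 RPKM at 0 h. After 1 h it was at 358 and 313 RPKM, after 4 h at 183 and 155 RPKM, and after 24 h at 326 and 323 RPKM, all below both 0 h libraries. Against 0 h library 2 alone the 1 h and 24 h values of g3714 lie much nearer than against library 1.

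The 0 h libraries, on which the members were chosen, differed more than any other pair of replicates over the members. Over all tested genes the 24 h pair was the widest, at a median absolute log2 difference of 0.35, against 0.32 for the 0 h pair. The median member differed 1.37-fold between the 0 h libraries, 1.16-fold at 1 h, 1.07-fold at 4 h and 1.29-fold at 24 h. By 1.5-fold or more, 16 members were higher in 0 h library 1 and 18 in library 2. The widest gaps were those of g4603, at 204 and 714 RPKM, and g9900, at 213 and 656 RPKM. g4603 held 478 to 835 RPKM and g9900 438 to 739 RPKM in the later libraries, all above library 1. In every later library more members lay nearer, on the log2 scale, to 0 h library 2 than to library 1, with 72 to 82 of 100 doing so. This was not particular to the members. Over all tested genes the median absolute log2 difference of a later library was 0.18 to 0.36 from 0 h library 2 and 0.38 to 0.54 from library 1.

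The later levels of these members are a description, since the split uses the same 0 h libraries and fixes part of their direction. Of the 16 higher in library 1, 10 lay below both 0 h libraries at 1 h, 12 at 4 h and 10 at 24 h, and 0, 1 and 0 lay above both. Of the 18 higher in library 2, 0 lay below both at any of these times, and 12, 3 and 3 lay above both. At 4 h the 16 stood at a median log2 of -1.39 to library 1 and -0.58 to library 2, and the 18 at 0.68 to library 1 and -0.08 to library 2. The first 100 genes of library 1 alone stood at a median log2 of -0.10 in library 2, and the first 100 of library 2 alone at -0.30 in library 1, with no time in air between them. All tested genes stood at -0.07 and 0.07 in the same comparisons.

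The comparisons among 1, 4 and 24 h were tested with limma on log2(RPKM + 1). Their fold changes do not use the values that chose the members. Their errors and p-values do in part, since the spread was pooled over all 8 libraries, 0 h included. The median SE was 0.27 in the members and 0.22 in all tested genes, which bears on the counts of small p-values below. With the 0 h libraries left out of the fit, 0 members were called in each of these comparisons. For 4 h against 1 h, 0 of 100 members had an adjusted p (Benjamini-Hochberg) under 0.05, where 0.407% of all tested genes did. The smallest adjusted p of a member was 0.147 in limma, and 6 members had an unadjusted p under 0.05, against 13.2% of tested genes. voom on the recovered reads also called 0, where it called 0.247% of tested genes. Both 4 h libraries lay above both 1 h libraries for 10 members (17.1% of tested genes) and below both for 46 (37.5%). The median log2 fold change was -0.16 for the members and -0.10 for all tested genes. Both depend on the scaling. After trimmed-mean scaling 19 members lay above and 14 below (30.03% and 23.6% of tested genes), and the medians were -0.02 and 0.03. Fold changes were negative for 53 members on that scale (46.4% of tested genes) and for 78 in the values as deposited (63.9%). In voom the medians were -0.05 and -0.0041.

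Among members whose groups did not overlap, g7783 had the highest log2 fold change from 1 h to 4 h, at 0.97 (SE 0.26, limma adjusted p = 0.147). The lowest was that of g3714, at -0.99 (SE 0.37, limma adjusted p = 0.301). Neither passed the test. With the 0 h libraries left out of the fit, the limma adjusted p was 0.162 for g7783 and 0.0996 for g3714. The g7783 value ran from 0.26 to 1.16 over the alternatives, with adjusted p from 0.0862 to 0.834, and was lowest under quantile normalization.

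For 24 h against 4 h, 0 of 100 members were called in limma, where 0.697% of all tested genes were, and 0 in voom, where 0.354% were. In limma 7 members had an unadjusted p under 0.05, against 12.6% of tested genes. Both 24 h libraries lay above both 4 h libraries for 36 members (29.2% of tested genes) and below both for 10 (18.3%), and after trimmed-mean scaling for 28 (21.6%) and 17 (27.2%). The highest log2 fold change without overlap was that of g4276, a minus-strand gene of scaffold00557 (488893 to 490286) whose 4 coding exons add up to 714 bp. Its 0 h libraries held 427 and 522 RPKM, those of 1 h 391 and 506 RPKM, those of 4 h 267 and 303 RPKM, and those of 24 h 560 and 735 RPKM. Its 4 h libraries were the lowest and its 24 h libraries the highest of all 8, and its log2 fold change, 1.17 (SE 0.24, limma adjusted p = 0.0896), did not pass the test.

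The lowest value in that comparison was that of g10018, a plus-strand gene of scaffold01283 (1 to 2151) whose 5 coding exons add up to 734 bp. Its 0 h libraries held 964 and 933 RPKM, those of 1 h 1039 and 807 RPKM, those of 4 h 1107 and 1165 RPKM, and those of 24 h 732 and 447 RPKM. Both 24 h libraries lay below all others, at a log2 fold change of -0.99 to 4 h (SE 0.28, limma adjusted p = 0.187).

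For 24 h against 1 h, limma and voom each called 0 members and 0% of all tested genes, and 1 member had an unadjusted p under 0.05 in limma, against 0.676% of tested genes. The groups overlapped for 86 of the 100 members, with 8 higher (4.59% of tested genes) and 6 lower (13.3%), or 12 (7.99%) and 4 (8.30%) after trimmed-mean scaling. g4276 and g10018 were again the extremes, at log2 fold changes of 0.53 (SE 0.24) and -0.68 (SE 0.28). The limma adjusted p was 1.00 for both.

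Over 1, 4 and 24 h the levels of the members stayed within a narrow range. The highest of these 3 means was a median 1.21 times the lowest, with 85 of 100 members under 1.5-fold. For all tested genes the median was 1.26 and 76.9% were under 1.5-fold, and for the next 100 genes in the 0 h order the median was 1.25 and 78 of 100 were. The lowest of the 3 means fell at 4 h for 65 members, where this held for 52.4% of tested genes. The highest fell at 1 h for 49 members (43.8% of tested genes), at 4 h for 14 (29.4%) and at 24 h for 37 (26.8%). After trimmed-mean scaling the lowest mean fell at 4 h for 47 members (39.8% of tested genes), and the highest at 1 h for 27 (26.8%), at 4 h for 36 (43.9%) and at 24 h for 37 (29.3%).

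The gene models of the members were compact. The span, which is the length in the deposited RPKM, had a median of 1735 bp in the members and 3044 bp in all genes. Of the members, 23 spanned under 1000 bp, as did 4.11% of all genes, and 0 spanned over 5000 bp, as did 25.3% of all genes. The median coding length was 544 bp against 1038 bp, and the median number of coding exons 4 against 7. Spliced length was 50.8% of the span in the median member and 43.5% in the median gene. RPKM divides by the span, so these medians are not free of the rule. The first 100 genes by spliced length had medians of 2141.5 bp span, 622.5 bp coding length and 41.1% spliced, and the first 100 by reads 3707.5 bp, 1179 bp and 41.7%. By spliced length the first 100 genes were still shorter than all genes in median span and coding length, and by reads they were longer. In both orders the median spliced share lay below the 43.5% of all genes. The next 100 genes had medians of 1784 bp span, 624 bp coding length and 4 coding exons.

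The length used changed which genes counted as abundant. When reads were divided by the spliced length instead of the span, 80 members were among the first 100 genes, and with no division by length 57 were. g2859 was first in each of these orders and g7741 at rank 2 by spliced length and at rank 4 by reads. g4461, a model of 2 coding exons and 142 bp coding length at scaffold00594 (1 to 682), was lowest of the members by reads, at rank 539. g8715, with 1 coding exon on scaffold01203 (1877 to 2662), was lowest by spliced length, at rank 272.

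Incomplete models were common among the members. A start and a stop codon were both annotated in 69 members, in 80 of the next 100 genes and in 86.6% of all genes. Of the 31 members without both, 25 began at the first base of a scaffold or were the only gene on it. Among all genes this held for 1131 of the 1383 models without both, a similar share. In all, 20 members began at the first base (9.75% of all genes) and 18 were alone on a scaffold (8.63% of all genes). These counts changed little with the spliced length and more with no division by length. By spliced length, 70 of the first 100 genes had both codons and 18 began at the first base, and by reads 83 and 11 did. Among the 10 highest, g1804, g3526 and g10027 lacked a start or a stop codon. The members lay on 63 scaffolds with at most 6 on one, 43 on the plus and 57 on the minus strand. No members were neighbours, none overlapped another model, and 0 had more than 1 transcript. Overlaps and further transcripts were rare among all genes too. Only 11 of 9053 neighbouring pairs of models overlapped, and 162 of 10283 genes had more than 1 transcript.

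**Figure D5:**
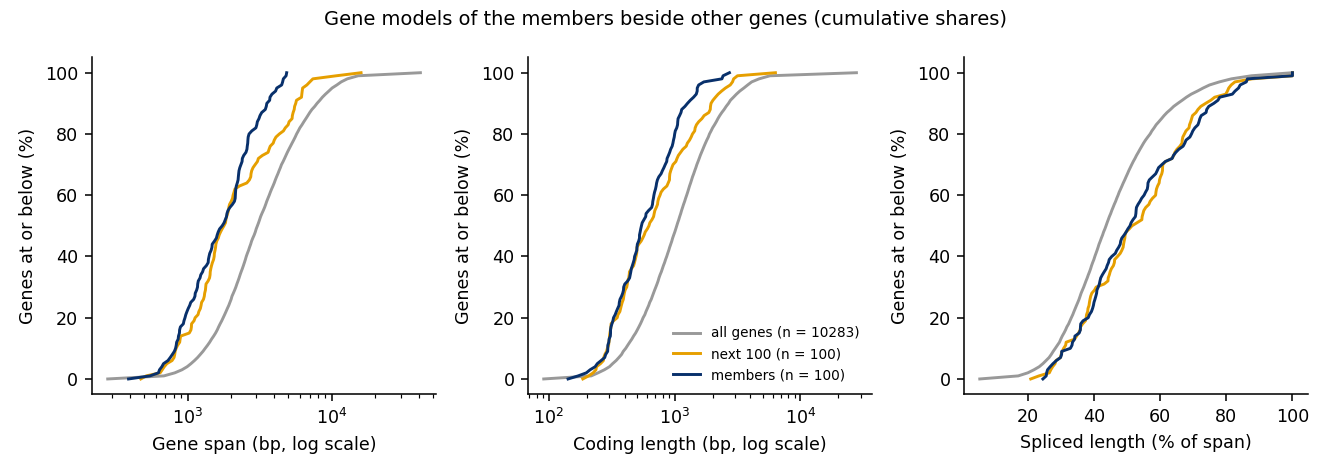
Cumulative share of genes, in percent, at or below a given span, coding length (both in bp on log scales) and spliced length as a percentage of the span. The 100 members are in dark blue, the next 100 genes by 0 h mean in orange and all 10283 genes in grey. The members' median span of 1735 bp lies to the left of the 3044 bp of all genes, and the median spliced share of 50.8% to the right of 43.5%.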

How the data were processed

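Transcript levels in 8 libraries (4 times, 2 libraries each) were used as RPKM, which the authors deposited as 1 column per library, per the file headers. TopHat and HTSeq are named in the submitters' processing notes, with no version. Gene models are AUGUSTUS predictions with a score per model and start and end positions among the other values, per the file headers as deposited. Of 10284 models, 1 has no RPKM row. RPKM times gene end minus start gave whole reads, within 0.01 reads, for 100% of the values in each library, and their sums (16706278 to 35463138) are the depths. Read shares are these reads over their sum.

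limma 3.58.1 (R 4.3.3; trend, robust) was fitted to log2(RPKM + 1) of the 9326 genes that averaged 1 RPKM or more across all libraries, in 4 groups, with 4 residual degrees of freedom, and p-values were adjusted over all of them. Contrasts with 0 h use the values that chose the members, so no test of them is given. The scripts were tested on simulated data. Members and alternatives were chosen with earlier results of these data known. Named genes were the 10 highest at 0 h, those at the boundary, the 2 with the widest gap at 0 h, the extremes without overlap of each later contrast, and the 2 highest and lowest ratios to 0 h. g5194, g4461 and g8715 were named as extremes of rank after their values were seen. No gene names were available, so the gene lists by function could not be measured. Alternatives changed the pseudocount, filter, scaling, test, fit, block, libraries and the choice of members.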

Additional observations from a re-analysis of the deposited data

How the results depend on the processing

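With other settings of the fit or a library left out, 0 members were called in each of the 3 contrasts among 1, 4 and 24 h. With 200 members 1 was called at 4 h against 1 h and 1 at 24 h against 4 h, g6984 in both, which lies just outside the 100. The replicate number as a block also gave 0 calls in each contrast. Deviations of same-numbered libraries correlated at 0.01, 0.35, 0.09, 0.11, -0.73 and 0.16 over the pairs of times, with -0.73 between 1 h and 24 h, and the labels do not say what the number marks, so it was not taken to pair the samples. In leave-outs, a lone library was assumed to vary like the other groups. The 6 tested fold changes of named members kept their sign and stayed uncalled in all 19 alternatives each.

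The read share at 0, 1, 4 and 24 h depended on which genes were taken. It was 10.6%, 11.8%, 12.2% and 11.7% for 50 genes, and 26.0%, 28.6%, 27.3% and 28.8% for 200. By spliced length it was 18.0%, 20.3%, 19.3% and 20.3%, and by reads 21.5%, 24.0%, 22.9% and 23.9%. As a share of the summed RPKM the members took 25.4%, 28.3%, 27.3% and 28.3%. Chosen on 0 h library 1 alone, the genes took 17.4%, 17.0% and 17.5% at 1, 4 and 24 h, and chosen on library 2 alone 20.0%, 19.8% and 19.8%. Single libraries gave 16.0% to 17.5%, 18.4% to 19.0%, 18.1% to 18.4% and 18.1% to 19.3%.

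The median log2 ratio of members to 0 h, whose alternatives were chosen after seeing the data, was 0.17 at 1 h. It moved to 0.27 with trimmed-mean scaling, 0.073 and 0.25 with members from 0 h library 1 or 2 alone, and 0.064 with 200 genes, and leave-outs gave 0.027 to 0.23. At 4 h it was -0.01, and 0.23 with trimmed-mean scaling, -0.030 as TPM, -0.090 and 0.15 with members from library 1 or 2 alone, 0.053 by spliced length, 0.089 by reads, -0.0050 with 50 genes and -0.023 with 200, and leave-outs gave -0.11 without 0 h library 1 to 0.10 without library 2. At 24 h it was 0.10, and 0.25 with trimmed-mean scaling, 0.054 and 0.15 with members from library 1 or 2 alone, and leave-outs gave -0.05 to 0.22. The cause of these shifts was not tested. Counting error was at most 1.83% of a member's value in a library, and no alternative varied the depth.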
